A study of Homo sapiens with 6 samples.

Results

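The nuclear genes of the mitochondrial respiratory chain were examined in WM164, a melanoma line of human origin with the BRAF V600E mutation. A gene was taken when it was annotated as protein coding and its symbol began with NDUF, SDHA, SDHB, SDHC, SDHD, UQCR, COX and a digit, or ATP5. This gave 111 of the 60504 genes in the table, with 46 in complex I, 8 in complex II, 9 in complex III, 28 in complex IV and 20 in complex V. The names choose subunits together with assembly factors, tissue isoforms and 2 readthrough genes. NDUFA4 and NDUFA4L2 were placed in complex IV, where the NDUFA4 protein sits. RNA-seq libraries came from cells transfected with an empty expression vector (EV) and from cells transfected with an HDAC8 expression vector, 3 libraries in each group, and both kinds of cells were kept under hygromycin selection. HDAC8 is a class I histone deacetylase. The comparison asked how the RNA of each complex differed between HDAC8 and EV libraries.

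The respiratory chain sits in the inner mitochondrial membrane. Complexes I and II pass electrons from NADH and succinate to coenzyme Q, complex III hands them to cytochrome c, and complex IV gives them to oxygen. Complexes I, III and IV pump protons out of the matrix, and complex V, the ATP synthase, lets them flow back to make ATP. Most subunits are encoded in the nucleus and imported, a small set is encoded in mitochondrial DNA, and complex II is encoded by nuclear genes alone. In melanoma the coactivator PGC1α (PPARGC1A), which is driven by the melanocyte factor MITF, is a known inducer of these genes.

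Total counts ran from 34741083 to 42041462 per library, and depth overlapped between the groups. The members took 0.463% to 0.564% of the counts of a library. HDAC8 itself had normalized counts (counts divided by the size factor of the library) of 383.8, 404.4 and 478.8 in EV and of 484.8, 445.5 and 473.7 in the HDAC8 libraries. Its log2 fold change was 0.15 ± 0.28 (SE, adjusted p = 0.856), and the groups overlapped, so all directions given here belong to libraries labelled HDAC8. Whether the deposited counts capture RNA from the vector was not tested. All 7 melanocytic markers had reads, with a summed normalized level of 244000 to 328000 in EV and of 136000 to 181000 in HDAC8. Of these 7, MLANA, TYR, DCT and PMEL were called lower. PMEL took most of the summed level, with 169800.1 to 247771.6 in EV and 89540.4 to 147944.3 in HDAC8. MITF had a log2 fold change of -0.20 (adjusted p = 0.544) with groups that overlapped. SOX10 stood at -0.33 (adjusted p = 0.211) and TYRP1, a gene of few reads, at -2.76 (adjusted p = 0.303), so these were not called. Of 16 markers of fibroblasts, endothelium, leukocytes, keratinocytes and muscle, CD68, PDGFRA and CD3E were called higher, while DCN and CDH5 were at 0 throughout. Of the 10 with an adjusted p, 5 had a positive and 5 a negative log2 fold change. LUM (-0.60, adjusted p = 0.0778) and COL1A1 (-1.47, adjusted p = 0.439) lay lower in every HDAC8 library. The summed level of the 16 was 5320 to 5940 in EV and 6020 to 8360 in HDAC8. The part of either marker list in the results below was not tested. The labels give a biological replicate number but not whether cultures were transfected separately, so p-values measure only the spread between these libraries.

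Of the 111 members, 105 had enough reads to be tested, 104 received an adjusted p and 102 had a mean normalized count of 50 or more. Genes were called at a DESeq2 adjusted p under 0.05 together with a log2 fold change of 0.58 or more in either direction. SDHA, the flavoprotein of complex II, was the only member called higher. COX7A2L, COX7C and COX11 of complex IV and ATP5F1C and ATP5F1E of complex V were called lower. Complexes I and III had no called member.

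Among all 21021 genes with an adjusted p, 5.57% were called higher and 5.44% lower. Among the 14440 of them at a mean of 50 or more normalized counts, the shares were 7.38% and 6.64%. The 102 members at that level were called higher in 0.980% and lower in 4.90% of cases, so the share called lower was near that of genes at large. Without the minimum fold, 11 members were lower (10.8%, against 8.02% of the 14440 genes) and 1 higher (0.980%, against 8.93%). The 6 members that passed only there were NDUFA9, SDHC, UQCRC1, COX7B, COX7A2 and ATP5MC2. Each of these 6 lost its adjusted p under 0.05 with limma-voom and with the replicate block, and the 11 became 6 with edgeR, 5 with limma-voom, 4 with the block, and 4 to 18 with a single library left out (18 without HDAC8 1, and 4 without EV 1, EV 3 or HDAC8 3). The number called lower rested on the libraries used, being 3 without EV 1 and 9 without HDAC8 1.

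The members differed from genes at large mainly in the direction of small differences. In 33 of the 102 members (32.4%) every HDAC8 library lay below every EV library, against 18.0% of the 14440 genes. The reverse held for 4 members (3.92%), namely SDHA, COX10, COX15 and NDUFV3, against 17.0% of genes. The log2 fold change was negative in 71 of the 102 (69.6%), and in 50.1% of genes at large. The median log2 fold change was -0.23 over the members and -0.003 over all genes. These counts describe genes that share libraries and are not independent of each other, and no test was made of them.

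**Figure D1:**
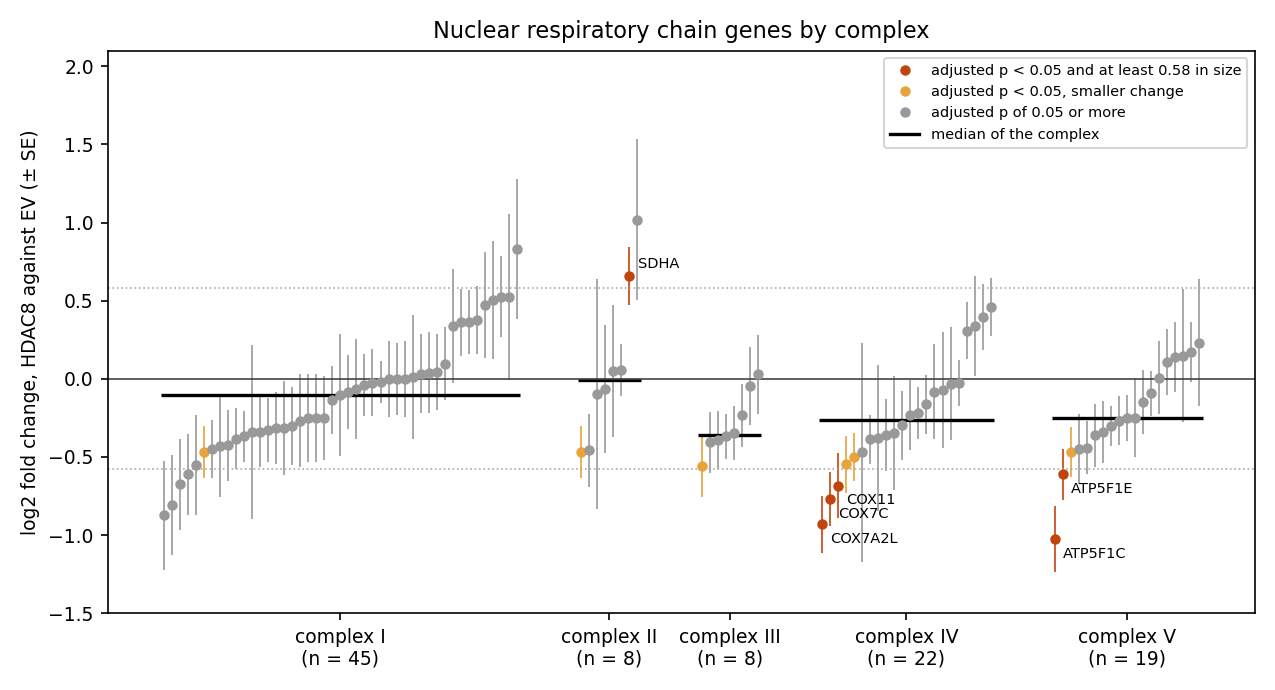
Log2 fold change of each member at a mean of 50 or more normalized counts (vertical axis, HDAC8 against EV, bars ± SE), sorted within its complex (horizontal axis), with the median of each complex as a black line. Red points were called, orange points had an adjusted p under 0.05 with a smaller change, and dotted lines mark 0.58 in either direction. SDHA stands at 0.66 and the 5 genes called lower lie between -1.03 and -0.61.

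The medians of the complexes were set side by side, and no difference between complexes was tested. The median log2 fold change was -0.10 for complex I (n = 45 genes), -0.01 for complex II (n = 8), -0.36 for complex III (n = 8), -0.26 for complex IV (n = 22) and -0.25 for complex V (n = 19). Over every tested member the median of complex I was -0.19 without EV 2, that of complex III was -0.225 without EV 3, and that of complex II was -0.145 without HDAC8 3 and -0.20 for its subunits alone, so the order of the complexes rests on the libraries and genes used. For complexes III and V the median level of the genes, taken per library against the EV mean, lay below every EV library in every HDAC8 library. For complex III these medians were -0.07, 0.09 and 0.001 in EV and -0.215, -0.42 and -0.33 in HDAC8. For complex V they were -0.05, 0.09 and -0.06 in EV and -0.15, -0.335 and -0.27 in HDAC8. Complex IV showed the same order, with -0.05, 0.04 and -0.01 in EV and -0.10, -0.33 and -0.22 in HDAC8. In complex I, HDAC8 1 (-0.03) lay within the range of the EV libraries (-0.08, 0.10 and 0.01), and HDAC8 2 (-0.15) and HDAC8 3 (-0.21) lay below it. Complex II showed no such order, with -0.07, 0.04 and -0.10 in EV and 0.01, -0.01 and 0.20 in HDAC8.

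**Figure D2:**
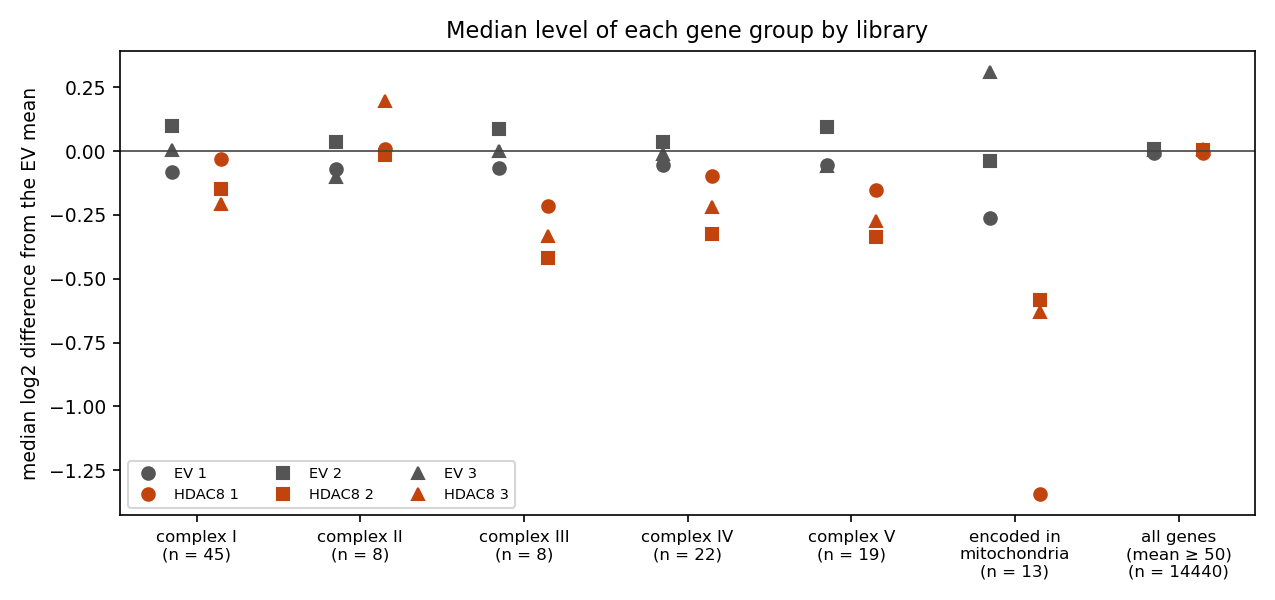
Median log2 difference from the EV mean (vertical axis) over the genes of each complex, the 13 genes encoded in mitochondria and all genes at a mean of 50 or more normalized counts (horizontal axis), for each library. Grey marks are EV and red marks HDAC8, with a circle, square and triangle for replicates 1, 2 and 3. The HDAC8 libraries lie below all EV libraries for complexes III, IV and V and for the genes encoded in mitochondria, and all genes together lie near 0.

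HDAC8 1 stood apart from HDAC8 2 and HDAC8 3. It had the highest of the 6 values in 27 members (26.5%) and the lowest in 25 (24.5%), close to its shares of 25.2% and 27.2% over all genes at a mean of 50 or more normalized counts. HDAC8 3 had the highest value in 2 of the 102 members, against 11.5% of these genes. Among the EV libraries, EV 2 had the highest value in 29 members (28.4%, against 15% of these genes). It had the lowest in 2 members, against 11.8% of these genes. Without HDAC8 1 the median over all members was -0.26, and without EV 2 it was -0.22. The part of single libraries in the lower level of the members was not tested further.

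As a share of all counts, the members of complex V took 0.181%, 0.185% and 0.170% in EV and 0.166%, 0.145% and 0.143% in HDAC8. Those of complex III took 0.0546%, 0.0549% and 0.0543% in EV and 0.0528%, 0.0395% and 0.0424% in HDAC8. Neither range overlapped, with HDAC8 lower. The members of complex II took 0.0403%, 0.0401% and 0.0372% in EV and 0.0474%, 0.0409% and 0.0420% in HDAC8, which did not overlap in the other direction. The shares of complexes I and IV overlapped between the groups. A share of counts gives abundant genes most weight, and it also moves with the share taken by mitochondrially encoded RNA, given further below.

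In complex II, SDHA carries the flavin and oxidises succinate, SDHB holds the iron-sulfur clusters, and SDHC and SDHD anchor the complex in the membrane and bind coenzyme Q. SDHA (ENSG00000073578, chromosome 5, 218303 to 257082, plus strand, GRCh38) had normalized counts of 4579.2, 5544.8 and 4402.5 in EV and of 9853.9, 6095.7 and 6978.0 in HDAC8. All HDAC8 libraries were above all EV libraries, with HDAC8 1 highest and HDAC8 2 close to EV 2. SDHA rose by 0.66 on the log2 scale (± 0.19 SE, 1.58-fold, adjusted p = 0.00531). The call was lost without EV 1 (adjusted p = 0.0633) and without EV 3 (adjusted p = 0.0803), and without HDAC8 1 the log2 fold change was 0.43 (adjusted p = 0.0144). SDHA has 3 annotated pseudogene copies, whose summed mean was 495 normalized counts, 7.94% of its own, and the call remained with their counts added.

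SDHC, a membrane anchor, had 5387.7, 5551.3 and 6057.5 normalized counts in EV and 3246.7, 4731.6 and 4314.4 in HDAC8. It lay lower in each HDAC8 library and its log2 fold change was -0.47 ± 0.17 (adjusted p = 0.0425), short of the minimum fold. SDHD, the other anchor, had 1386.3, 1003.0 and 1067.9 in EV and 757.6, 970.9 and 788.4 in HDAC8, a log2 fold change of -0.46 ± 0.23 (adjusted p = 0.205). SDHB had 2794.5, 2868.1 and 2518.0 in EV and 2419.0, 3137.0 and 2943.4 in HDAC8, which overlapped, and its log2 fold change was 0.06 (95% interval -0.27 to 0.38, adjusted p = 0.923). The 4 assembly factors of complex II overlapped between the groups and none passed the test. SDHAF1, which helps insert the iron-sulfur clusters of SDHB, had the largest positive log2 fold change of the complex, 1.02 ± 0.52 (adjusted p = 0.207), at 76.5 to 162.5 normalized counts in EV and 156.5 to 288.8 in HDAC8.

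**Figure D3:**
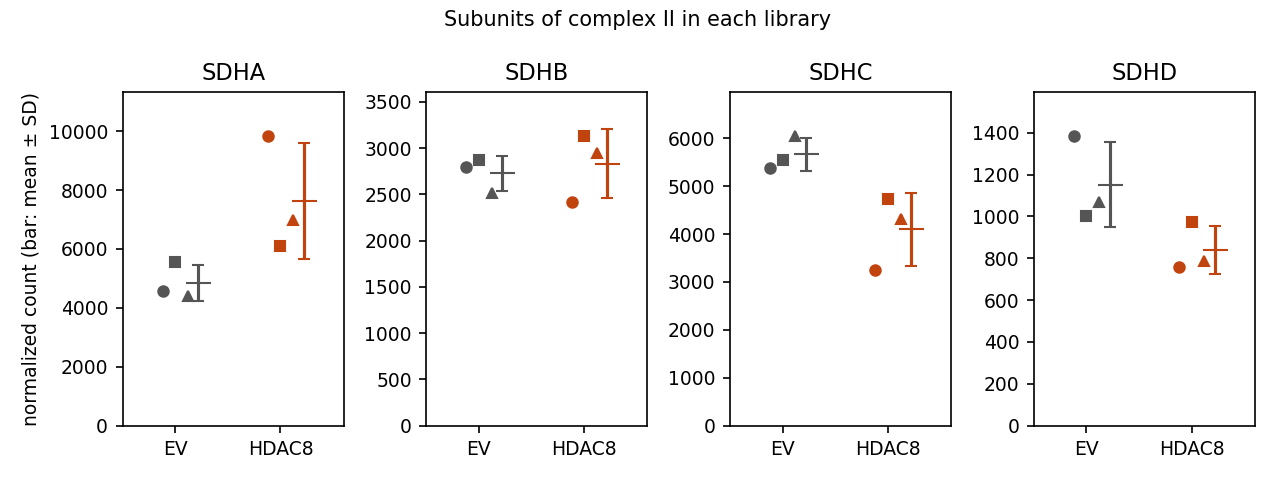
Normalized counts (vertical axes, each starting at 0) of the 4 subunits of complex II in each EV and HDAC8 library, with a circle, square and triangle for replicates 1, 2 and 3 and a bar for the mean ± SD (n = 3). SDHA lies higher and SDHC and SDHD lower in every HDAC8 library, and SDHB overlaps between the groups.

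Complex V is built from a catalytic F1 head in the matrix, a membrane part with the rotating c ring, and a peripheral stalk that holds the head still. ATP5F1C, the γ subunit that forms the central shaft inside the head (ENSG00000165629, chromosome 10, 7788147 to 7807815, plus strand), had 3949.0, 3739.5 and 4163.1 normalized counts in EV and 1302.3, 2301.3 and 2217.1 in HDAC8. The lowest EV library was above the highest HDAC8 library, and HDAC8 1 was lowest of all. ATP5F1C fell by 1.03 on the log2 scale (± 0.21 SE, 2.04-fold, adjusted p = 2.93e-05). ATP5F1E, the ε subunit attached to the shaft, had 3414.2, 3411.7 and 2787.9 in EV and 2128.3, 2039.1 and 2124.5 in HDAC8. The HDAC8 libraries lay close together, and it fell by 0.61 (± 0.16 SE, 1.53-fold, adjusted p = 0.00257). Scaling by total counts moved ATP5F1E to -0.57, just short of the minimum fold, and its call was also lost without EV 1 and without EV 2.

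The subunits that form the catalytic ring of the head did not pass the test with all 6 libraries. ATP5F1B, the catalytic β subunit, had 20206.6, 22274.3 and 20460.1 normalized counts in EV and 18846.0, 16615.8 and 15662.4 in HDAC8, a log2 fold change of -0.30 ± 0.13 (adjusted p = 0.108). Its groups did not overlap, and without HDAC8 1 its log2 fold change was -0.38 (adjusted p = 0.000748), short of the minimum fold. ATP5F1A, the α subunit, had 9363.0, 10092.1 and 10085.7 in EV and 10739.0, 8810.8 and 8137.7 in HDAC8, which overlapped (log2 fold change -0.09, 95% interval -0.38 to 0.19, adjusted p = 0.807). ATP5F1D, the δ subunit, had a log2 fold change of 0.01 (adjusted p = 0.994). Within the F1 head the log2 fold changes therefore ran from -1.03 to 0.01.

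The c ring is formed by 1 protein that 3 genes encode, ATP5MC1, ATP5MC2 and ATP5MC3. Their log2 fold changes were -0.36, -0.47 and -0.34. ATP5MC2 had 3417.4, 4458.6 and 3876.5 normalized counts in EV and 2706.3, 2806.2 and 2972.8 in HDAC8 with a log2 fold change of -0.47 ± 0.16 (adjusted p = 0.0302), below the minimum fold. All 4 genes of the peripheral stalk had negative log2 fold changes, from -0.44 (ATP5PO) to -0.25 (ATP5PF). In 3 of them, ATP5PO, ATP5PD and ATP5PB, every HDAC8 library lay below every EV library, as in 18.0% of the 14440 genes. None of the 4 passed the test, ATP5PO coming closest with an adjusted p of 0.061. The other membrane subunits with an adjusted p went either way, from -0.45 (ATP5MD) to 0.17 (ATP5MG). ATP5MGL had too few reads for an adjusted p, and ATP5IF1, the inhibitor of the synthase, stood at 0.14 (adjusted p = 0.818). The readthrough gene ATP5MF-PTCD1 had the highest log2 fold change of the complex with an adjusted p, 0.23 ± 0.41 (adjusted p = 0.839), and shares its reads with ATP5MF.

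Complex IV has a core encoded in mitochondria, around which nuclear subunits are placed. COX7C, a small membrane subunit (ENSG00000127184, chromosome 5, 86617928 to 86620962, plus strand), had 3404.8, 3455.6 and 3109.1 normalized counts in EV and 2295.0, 1728.8 and 1828.4 in HDAC8. The groups were well apart, and COX7C fell by 0.77 on the log2 scale (± 0.17 SE, 1.70-fold, adjusted p = 0.000194). COX7A2L, which resembles COX7A2 and joins complexes III and IV into supercomplexes (ENSG00000115944, chromosome 2, 42333546 to 42425088, minus strand), had 2170.6, 2029.4 and 2078.6 in EV and 952.6, 1214.6 and 1123.8 in HDAC8. Each group was tight, and COX7A2L fell by 0.93 (± 0.19 SE, 1.91-fold, adjusted p = 1.49e-05). COX7C, COX7A2L and ATP5F1C were called with every other scaling, filter and tool that was run, and with any single library left out, but no member was called in a test against the fold minimum itself.

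COX7A2 and COX7B, small membrane subunits of the same complex, passed the adjusted p below the minimum fold. COX7A2 had 3157.3, 3031.5 and 2929.8 in EV and 2124.0, 2182.5 and 2142.0 in HDAC8 (log2 fold change -0.50 ± 0.15, adjusted p = 0.011). COX7B had 2294.3, 1986.5 and 2311.1 in EV and 1333.9, 1722.6 and 1454.8 in HDAC8 (log2 fold change -0.55 ± 0.18, adjusted p = 0.0274). In COX7C, COX7A2, COX7B and COX7A2L the groups did not overlap. The other subunits did not pass the test. COX4I1, a regulatory subunit, had 2210.5, 3086.7 and 3118.9 in EV and 2899.6, 1513.7 and 2144.1 in HDAC8, a log2 fold change of -0.36 (adjusted p = 0.378) that became -0.62 (adjusted p = 0.018) without HDAC8 1. COX5A stood at -0.22 (adjusted p = 0.495), COX6A1 at -0.03 (adjusted p = 0.963), and COX8A and COX6C had positive values of 0.31 and 0.34 (adjusted p = 0.319 and 0.615).

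Of the 9 assembly factors of complex IV, COX11, which delivers copper to the core subunit COX1, fell. It had 1094.7, 1089.9 and 1215.6 normalized counts in EV and 704.6, 727.1 and 686.0 in HDAC8 (log2 fold change -0.68 ± 0.21, 1.61-fold, adjusted p = 0.0126). Its groups were far apart, but its call was lost without any single EV library, without HDAC8 3, and with the replicate number as a block (adjusted p = 0.0639). COX10 and COX15, which make the heme A of complex IV, went the other way. COX10 had 835.7, 1026.4 and 1194.0 in EV and 1319.4, 1427.7 and 1278.4 in HDAC8 (log2 fold change 0.40, adjusted p = 0.245). COX15 had 1168.1, 1386.0 and 1505.3 in EV and 1814.5, 1882.4 and 1893.7 in HDAC8 (log2 fold change 0.46, adjusted p = 0.0806). In both genes the groups did not overlap and the test was not passed.

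**Figure D4:**
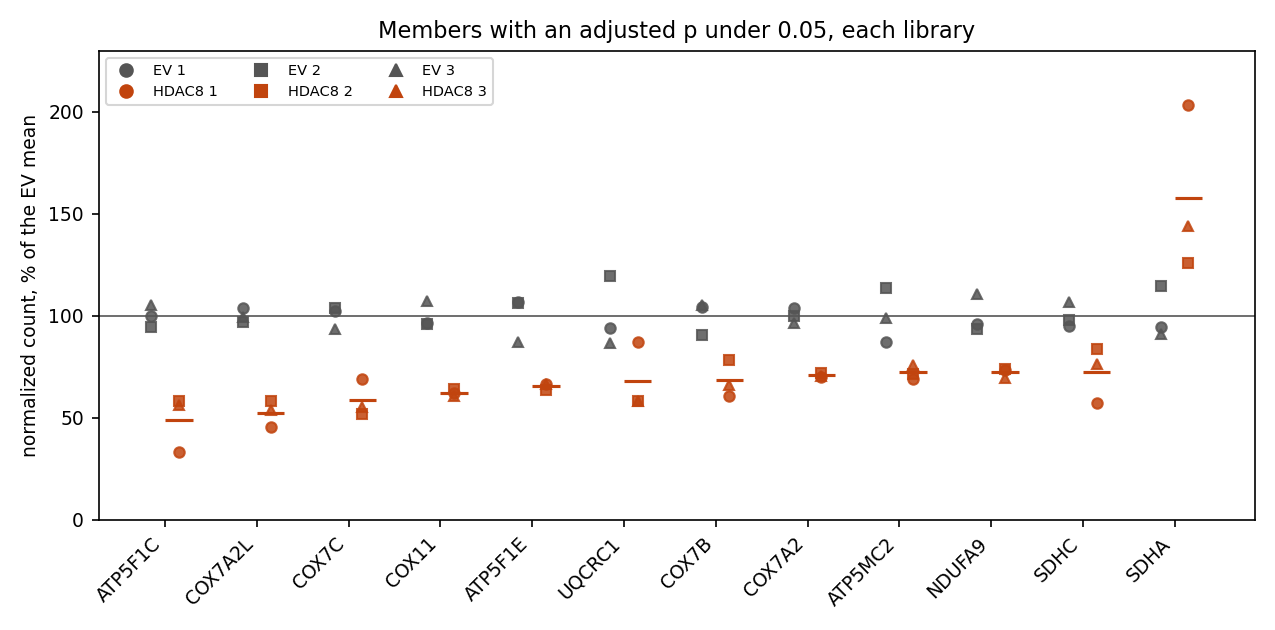
Normalized count of the 12 members with an adjusted p under 0.05 in each library, as a percentage of the EV mean of that gene (vertical axis), with genes along the horizontal axis, grey EV marks and red HDAC8 marks (circle, square and triangle for replicates 1, 2 and 3) and a red line at the HDAC8 mean. SDHA is the only gene with an HDAC8 mean above 100%, and UQCRC1 is the only gene whose groups overlap.

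Several subunits of complex IV have an alternative isoform used in particular tissues. COX4I2, COX6A2, COX7B2 and COX8C were at 0 in all 6 libraries, and COX7A1, the isoform of striated muscle, had too few reads to be tested (mean of 1.48 normalized counts, against 2595 for COX7A2). The other isoforms were present at low levels. NDUFA4L2, which hypoxia induces, took 2.92%, 2.16% and 2.93% of the summed counts of NDUFA4L2 and NDUFA4 in EV. In HDAC8 it took 4.45%, 2.26% and 1.07%, so the groups overlapped. The log2 ratio differed by -0.25 between HDAC8 and EV (exact two-sided permutation test, p = 0.8, n = 3 per group). COX6B2, the testis form, took 1.64%, 0.889% and 2.23% of the summed counts of COX6B2 and COX6B1 in EV. In HDAC8 it took 0.698%, 2.22% and 1.22%, a difference of -0.26 in log2 ratio (exact two-sided permutation test, p = 0.7, n = 3 per group). The smallest p this design allows is 0.1, and both ratios changed sign when a single library was left out. The main isoforms NDUFA4 and COX6B1 had log2 fold changes of -0.39 (adjusted p = 0.0834) and -0.16 (adjusted p = 0.71).

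Complex III has 3 nuclear genes for its core and for the Rieske iron-sulfur protein in this list. UQCRC1, a core subunit, had 3450.9, 4372.7 and 3172.1 normalized counts in EV and 3192.9, 2136.4 and 2140.9 in HDAC8. HDAC8 1 lay within the EV range and the other HDAC8 libraries lay well below it. The log2 fold change of UQCRC1 was -0.56 ± 0.20 (adjusted p = 0.0462), just short of the minimum fold, and it was -0.78 (adjusted p = 4.63e-05) without HDAC8 1. UQCRC2, its partner in the core, had 4957.8, 4674.3 and 5314.8 in EV and 4196.7, 3658.3 and 3728.6 in HDAC8 (log2 fold change -0.37, adjusted p = 0.0726). UQCRFS1, the Rieske protein, had 2008.1, 2186.3 and 2101.3 in EV and 1500.7, 1669.4 and 1785.9 in HDAC8 (log2 fold change -0.35, adjusted p = 0.194). In UQCRC2 and UQCRFS1 the groups did not overlap. The 6 accessory genes ran from -0.41 (UQCRB) to 0.37 (UQCRHL) and none passed the test. UQCR11 had the highest value among those with a mean of at least 50, 0.03 (adjusted p = 0.976), with 2658.4 in HDAC8 1 against 1343.7 and 1497.3 in HDAC8 2 and HDAC8 3. CYC1, the cytochrome c1 of complex III, whose symbol the naming rule leaves out, had a log2 fold change of 0.22 (adjusted p = 0.535). Cytochrome c itself, CYCS, stood at -0.48 (adjusted p = 0.0472), with groups that overlapped, and its adjusted p was under 0.05 in 7 of 15 alternatives.

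Complex I has a core of catalytic subunits, here 7 nuclear genes, with 30 accessory subunits and 8 assembly factors around it. The core was close to even, with a median log2 fold change of -0.02 and none past the test. NDUFS1, the largest core subunit, had 7705.1, 7827.3 and 9075.0 normalized counts in EV and 7729.1, 8458.5 and 8107.3 in HDAC8 (log2 fold change -0.02, 95% interval -0.28 to 0.24, adjusted p = 0.971). NDUFV1, which binds NADH, had 1531.0, 1947.3 and 1433.4 in EV and 3494.7, 1607.9 and 1963.4 in HDAC8, with the highest value in HDAC8 1 (log2 fold change 0.53 ± 0.26, adjusted p = 0.192). The value was 0.12 without HDAC8 1, and without HDAC8 2 it was 0.74 and called (adjusted p = 0.0343). NDUFV2, its neighbour in the complex, stood at -0.43 (adjusted p = 0.246).

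The accessory subunits of complex I spread widely. Of the 30, 19 had a negative log2 fold change, 9 had HDAC8 libraries all below the EV libraries, and NDUFV3 alone had them all above. The shares over the 14440 genes at a mean of 50 or more normalized counts were 50.1%, 18.0% and 17.0%. NDUFA9, which supports the junction of the arms of complex I, had 2280.7, 2217.2 and 2630.3 in EV and 1746.1, 1754.4 and 1650.9 in HDAC8. Its log2 fold change was -0.47 ± 0.17 (adjusted p = 0.0431), and it was the only gene of the complex with an adjusted p under 0.05. NDUFA9 passed in 5 of 15 alternatives, and not with its pseudogene copy added (adjusted p = 0.0676) or without EV 3 (adjusted p = 0.282). NDUFB6, a membrane arm subunit, had the lowest log2 fold change of the complex, -0.87 ± 0.35 (adjusted p = 0.0786), with 361.8, 349.3 and 365.5 in EV and 201.8, 164.9 and 221.1 in HDAC8. With at least 10 counts required in every library, NDUFB6 passed (adjusted p = 0.0136), and NDUFA3 and NDUFC1 were also called lower. NDUFS6 had the highest value, 0.83 ± 0.45 (adjusted p = 0.25), with 145.8, 303.5 and 182.2 in EV and 578.0, 220.2 and 323.4 in HDAC8, which overlapped. The assembly factors of complex I ran from -0.68 (NDUFAF4, adjusted p = 0.116) to 0.53 (NDUFAF8, adjusted p = 0.651).

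Subunits and assembly factors were also set side by side over all complexes. The 78 subunits with an adjusted p had a median log2 fold change of -0.24, with 9 past an adjusted p of 0.05 downward and 1 upward. The 21 assembly factors had a median of -0.10, with COX11 alone past the test. The 33 assembly factors whose names the rule leaves out had a median of 0.02. Of these, CMC2, which acts in complex IV assembly, was called lower (log2 fold change -0.68, adjusted p = 0.0303). The CMC2 call was lost with the replicate block (adjusted p = 0.077) and without EV 1, EV 3, HDAC8 1 or HDAC8 3 (adjusted p up to 0.191). UQCC1 (-0.53, adjusted p = 0.0462) and COA7 (0.43, adjusted p = 0.0494) passed the adjusted p at a smaller fold, and neither did so with edgeR, limma-voom or the replicate block.

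Of the 13 subunits encoded in mitochondrial DNA, 9 were called lower, a count that was 5 without HDAC8 1, 7 without EV 3 and 12 with the replicate block. The other 4 did not pass, namely MT-ND1 (-0.13, adjusted p = 0.787), MT-ND2 (-0.82, adjusted p = 0.0935), MT-ND6 (-0.86, adjusted p = 0.178) and MT-ATP8 (-0.84, adjusted p = 0.313). The median log2 fold change of the 13 was -0.82, and in all of them but MT-ND1 every HDAC8 library lay below every EV library. MT-CYB, the mitochondrial subunit of complex III, fell by 0.93 (adjusted p = 8.71e-06), and MT-CO1, the catalytic subunit of complex IV, by 0.64 (adjusted p = 0.016). The MT-CO1 call was lost with edgeR (adjusted p = 0.0566), without EV 3 (adjusted p = 0.148) and without HDAC8 1, where the log2 fold change was -0.38. All genes with a symbol that begins with MT-, of which these 13 are a part, took 9.66%, 10.2% and 12.8% of the counts in EV. In HDAC8 they took 4.46%, 7.94% and 7.63%. Over the 13 subunits HDAC8 1 had the lowest median level, -1.34 against -0.58 and -0.63 in HDAC8 2 and HDAC8 3. Over the nuclear members its median of -0.08 was the highest of the HDAC8 libraries. The calls among the nuclear members were the same in a fit without the mitochondrially encoded genes.

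Genes that work beside the chain were counted in the same way. Of 14 citric acid cycle enzymes, IDH2, the mitochondrial NADP-dependent isocitrate dehydrogenase, was called lower, with 1317.0, 1599.8 and 1398.9 normalized counts in EV and 757.6, 852.1 and 683.9 in HDAC8 (log2 fold change -0.91, adjusted p = 0.000302). FH, which acts on the product of complex II, stood at -0.50 (adjusted p = 0.0426) and OGDH, a subunit of the 2-oxoglutarate dehydrogenase complex, at 0.48 (adjusted p = 0.00919), both below the minimum fold. FH passed the adjusted p in 6 and OGDH in 12 of 15 alternatives. Of 13 genes of coenzyme Q synthesis none was called. In the fit without mitochondrially encoded genes 1 was called lower, and also with total counts without those genes and with at least 10 counts in every library. The median log2 fold change of the 13 was -0.23, near that of the members. In all, 10 were negative, 5 had HDAC8 libraries all below EV and 1 had the reverse, against 50.1%, 18.0% and 17.0% of the 14440 genes. COQ9 (-0.58, adjusted p = 0.037) and COQ6 (0.50, adjusted p = 0.027) passed the adjusted p, but not with edgeR, limma-voom or the replicate block. Of 8 regulators of the chain, PPARGC1A alone was called. It had 5059.5, 4785.5 and 5261.6 in EV and 2759.3, 3437.0 and 3057.8 in HDAC8 and fell by 0.71 (± 0.15 SE, 1.63-fold, adjusted p = 7.18e-05). PPARGC1B and GABPB1 stood at -0.29 and -0.35, with HDAC8 libraries all below EV, and NRF1, GABPA, YY1, TFAM and ESRRA at 0.21, -0.02, 0.08, -0.12 and 0.51. None of these 7 passed the test.

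The promoters of the members were searched for recognition sequences of known regulators of the chain. Windows from 250 bases before to 50 bases after the start of the gene (RefSeq, GRCh38.p14) were at hand for 91 of the 111 members and were read on both strands, beside 27305 such windows of all genes. The NRF1 motif (GCGCANGCG) was in 30.8% of the members' windows and in 8.05% of all. The GABP/ETS motif (CCGGAAGT) was in 15.4% against 4.44%, the YY1 motif (AAGATGGCG) in 9.89% against 1.85%, and the ERRα motif (AAGGTCA) in 11.0% against 3.97%. For the E-box (CACGTG) the shares were 9.89% and 7.43%. The AP-1 motif (TGAGTCA) was in 0 of the 91 and in 4.92% of all windows. No window held matches to different motifs that overlapped. The 27305 windows were not matched to the members in kind of gene or in expression. Most members lacked any given motif, the shares were not tested, and a match is a stretch of letters, not a bound site.

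Of the 9 members with a window and an adjusted p under 0.05 downward, 4 held the NRF1 motif and 2 the YY1 motif, beside 24 and 7 of the other 82. The GABP/ETS, ERRα and E-box motifs were in 0 of these 9 and in 14, 10 and 9 of the other 82. The NRF1 motif was found in members of either direction. SDHA, the member called higher, held the NRF1 motif at 4 places at equal spacing, and ATP5F1C, the member with the lowest log2 fold change, held it near its start. UQCRC1 and NDUFA9 held NRF1 and YY1 motifs together. The windows of COX7C, COX7A2L and ATP5F1E held no match to the NRF1 motif. That of COX7A2L (chr2:42361168-42361467) lies inside the gene as positioned above, so the start given there was not searched. The sites of SDHA, ATP5F1C, UQCRC1 and NDUFA9 are shown because the gene called higher and genes that were lower carry the same letters. Capitals mark the motif on either strand, each stretch is read along the strand of the gene, and the names give its distance from the RefSeq start. RefSeq and GENCODE starts can differ. The GENCODE starts given further above, 7788147 for ATP5F1C and 218303 for SDHA, fall within the ATP5F1C stretch and the last SDHA stretch.
SDHA, 166 bases before the start, chr5:218144-218172, plus strand: ggtccgctttGCGCAGGCGcggcgccccc
SDHA, 117 bases before the start, chr5:218193-218221, plus strand: gtggcatggtGCGCAGGCGcgatgtcccc
SDHA, 68 bases before the start, chr5:218242-218270, plus strand: ccggcgtggtGCGCAGGCGcggtatcccc
SDHA, 19 bases before the start, chr5:218291-218319, plus strand: ccggtgtggtGCGCAGGCGcagtctgcgc
ATP5F1C, 22 bases before the start, chr10:7788145-7788174, plus strand: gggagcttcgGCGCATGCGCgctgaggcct
UQCRC1, 46 bases before the start, chr3:48609674-48609702, minus strand: tacggtactgCGCCTGCGCcgcgaccgcc
UQCRC1, 12 bases before the start, chr3:48609640-48609668, minus strand: gcccagtctaCGCTTGCGCggcgcaacag
UQCRC1, YY1 motif after the start, chr3:48609605-48609633, minus strand: ctgcagctggAAGATGGCGgcgtccgtgg
NDUFA9, 79 bases before the start, chr12:4649025-4649053, plus strand: tcttggttagCGCTTGCGCagacaggcga
NDUFA9, YY1 motif after the start, chr12:4649114-4649142, plus strand: attgtgggaaAAGATGGCGgctgccgcac
In the 4 stretches of SDHA the bases around the motif also repeat in part, and the RNA of SDHA and of ATP5F1C, whose stretch holds the motif on both strands, moved in opposite directions (log2 fold change 0.66 and -1.03).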

How the data were processed

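RNA was measured in 6 WM164 libraries, 3 with an empty vector and 3 with an HDAC8 vector, grouped by the labels. Trimming by the authors used Trimmomatic, alignment to the transcriptome STAR, and estimation of the reads of each gene RSEM. Their deposited table holds expected counts, which are not scaled between libraries. The genome build and annotation release are not given in the sources used here, nor is strand-specific counting, so overlapping genes are uncertain. RSEM divides reads between near-identical copies, and 50 members have 168 annotated pseudogene copies in all. Rows without a symbol (0.0804% to 0.102% of counts) name an Ensembl gene and were kept.

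Expected counts were rounded. HDAC8 and EV libraries were compared with DESeq2 1.42.0 in R 4.3.3 (two-sided Wald test, size factors of 0.918 to 1.17) over 26162 genes that had 10 or more counts in total, and p-values were adjusted by Benjamini-Hochberg over the 21021 genes that received one. The thresholds are those of the methods of the study. Members were read out of this fit. Those not tested were NDUFC2-KCTD14, COX4I2, COX7A1, COX6A2, COX7B2 and COX8C, and ATP5MGL received no adjusted p. For a gene without reads the limit from counting error alone is a floor of 3 counts (2.57 to 3.27 normalized counts), and counts of 0 were kept as 0. The 95% intervals use the DESeq2 standard error. Library medians used log2(normalized count + 1), and isoform ratios added 0.5 to each count and required a mean of at least 10 in both genes. Gene positions are those of GENCODE 44, and promoter windows those of RefSeq, and the start of a gene can differ between them.

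Members, their roles and the other gene lists were chosen with earlier results of these data known. Named genes are the members called, the highest and lowest log2 fold change of each complex among members at a mean of 50 or more normalized counts, central subunits, isoform pairs, and called genes of the pathway with CYC1, CYCS and PPARGC1A. Other members with an adjusted p under 0.05, COX10, COX15 and the remaining genes given with values were chosen after their values were seen. Alternatives were edgeR 4.0.16 and limma-voom 3.58.1, other scalings, filters and thresholds, a replicate block, summed pseudogene copies and each library left out. Fits were tested on simulated data with the same spread in every library, so that test does not cover a library that stands apart. Libraries of the same group differed beyond sampling noise (chi-square per degree of freedom of 26.0 to 153.4), so no library was counted as a repeat.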

Additional observations from a re-analysis of the deposited data

How the results depend on the processing

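The number of members called higher was 0 to 2 and the number called lower 3 to 9 with 1 library left out (0 higher without EV 1, EV 3 or HDAC8 1, and 2 without HDAC8 2). A test against the fold minimum called 0 higher and 0 lower (1 member at an unadjusted p under 0.05 in that test), unadjusted p-values called 2 and 9, no minimum fold gave 11 lower, and at least 10 counts in every library gave 8 lower. The replicate numbers did not pair the libraries (correlations of -0.0273, -0.0663 and 0.0399), and the replicate block called 1 higher and 4 lower. With 1 library left out, median log2 fold changes ran from -0.19 to -0.077 for complex I, from -0.145 to 0.063 for complex II (-0.20 for its subunits alone) and from -0.37 to -0.225 for complex III. The difference in log2 ratio ran from -0.77 to 0.275 for NDUFA4L2 to NDUFA4 and from -0.68 to 0.15 for COX6B2 to COX6B1. The medians over all members (-0.26 to -0.16) and over complexes III, IV and V stayed negative throughout. Genes that changed sign were all short of the test. They were NDUFS1 (0.025 by total counts), UQCR11 (-0.018 by limma-voom and -0.031 with the replicate block), and, with 1 library left out, NDUFS1 (-0.064 to 0.055), UQCR11 (-0.34 to 0.21), COX6B1 (-0.26 to 0.008), SDHB (-0.02 to 0.16), ATP5MF-PTCD1 (-0.25 to 0.51) and COX6B2 (-0.83 to 0.10). Of the 40 named genes, 20 had the same sign and the same verdict of the test in all settings. Over all genes, 50.6% of calls were higher, and 56.4% with total counts, which moved the median of all genes by 0.044. The cause of these changes was not tested. With 3 libraries a group, small differences and genes of few reads are the least certain.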
